A study of Homo sapiens with 6 samples.

Results

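The 3 control clones of MDA-MB-231, of the 6 clones in the series, were described on their own as a baseline expression state. They were chosen by their labels, which name them as controls, and not by any measured value. MDA-MB-231 is an established human breast cancer line from a metastatic adenocarcinoma that lacks oestrogen and progesterone receptors and ERBB2 amplification, and it serves as a standard model of invasive cells. Each control clone grew from a single puromycin-resistant cell after infection with a pSM2 retroviral vector, which was either empty or carried a short hairpin RNA against GFP, per the labels' protocols. The labels do not say which of these control vectors a given clone carried, so vector and clone cannot be told apart. All 3 clones share the parental line, the retroviral infection, puromycin selection, passage number and serum-containing RPMI medium. The series sets such clones against clones in which WASF3, an actin regulator of the WAVE family, was knocked down, and the knockdown clones do not enter the values below.

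Expression was read on 1 Affymetrix oligonucleotide array per clone, with labelling from the polyadenylated 3′ end of transcripts. All levels are log2 RMA signals as deposited, so a difference of 1 is a doubling of signal. A gene is represented by its probe set of highest mean signal over these 3 arrays, which gave 19775 genes. Because probes differ in affinity, a rank of signal is not a rank of RNA molecules. A level that would occur without the transcript was taken from 50 analysed genes restricted to other organs. Their means ran from 2.71 to 6.86 with a median of 4.46, and their 95th percentile on each array was that array's background limit, at 6.11, 6.03 and 5.97 in clones 1, 2 and 3. A gene is called above background when it passed the limit in all 3 clones and within the background range when it passed in none. Of these genes, 10250 (51.8%) were above background, 9045 (45.7%) within the range and 480 mixed. The share of a gene list is set beside this 51.8% as a description, and a share near it says nothing particular about the list. The panel and the list members were chosen with earlier results of these data known, so a share far from 51.8% is no test of a list either. Of the 10523 genes with more than 1 probe set, 6980 were above background, and 4779 of these had another probe set that was not. Lists were not matched to all genes for the number of probe sets, so 51.8% is an approximate yardstick. Probe sets whose design matches several transcripts can share signal between genes, and without them 46.9% of 16788 genes were above background. There is no second group here, so no test was made and values are given per clone or as mean ± SD (n = 3 clones). With 1 array per clone, differences between clones and between arrays cannot be told apart, and the number of arrays limits the precision.

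MDA-MB-231 is commonly placed in the claudin-low group of breast cancers, whose cells make vimentin filaments, carry CD44 and EGFR on their surface and have given up much of the cadherin-based adhesion of luminal epithelium. Such cells sit in a state between epithelial and mesenchymal programmes, which is governed by opposed transcription factors: the ZEB, SNAI and TWIST families repress epithelial genes, while GRHL2, OVOL and the ESRP splicing regulators keep them on. The secreted products of these cells, among them matrix proteins, proteases and inflammatory cytokines, are known to shape invasion and the surrounding stroma.

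The label was checked first on its markers. VIM, the intermediate filament protein of mesenchymal cells, read 14.31, 14.23 and 14.30 in clones 1, 2 and 3 on its brighter probe set, rank 19 of all genes by signal. Its other probe set read 4.46, 4.55 and 4.79, within the background range. CD44, the hyaluronan receptor, read 11.78, 11.73 and 11.81, and 9 of its 13 probe sets were above background. EGFR, the epidermal growth factor receptor, read 10.35, 10.37 and 10.37, with 3 of 9 probe sets above background. On their brightest probe sets, all 3 label markers were thus above the limit in every clone, and for each the clones lay within 0.1 of each other. WASF3 itself, the gene targeted elsewhere in the series, read 6.77, 6.42 and 6.59 on its only probe set, which is above the limit in each clone but not above the brightest panel gene.

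**Figure D1:**
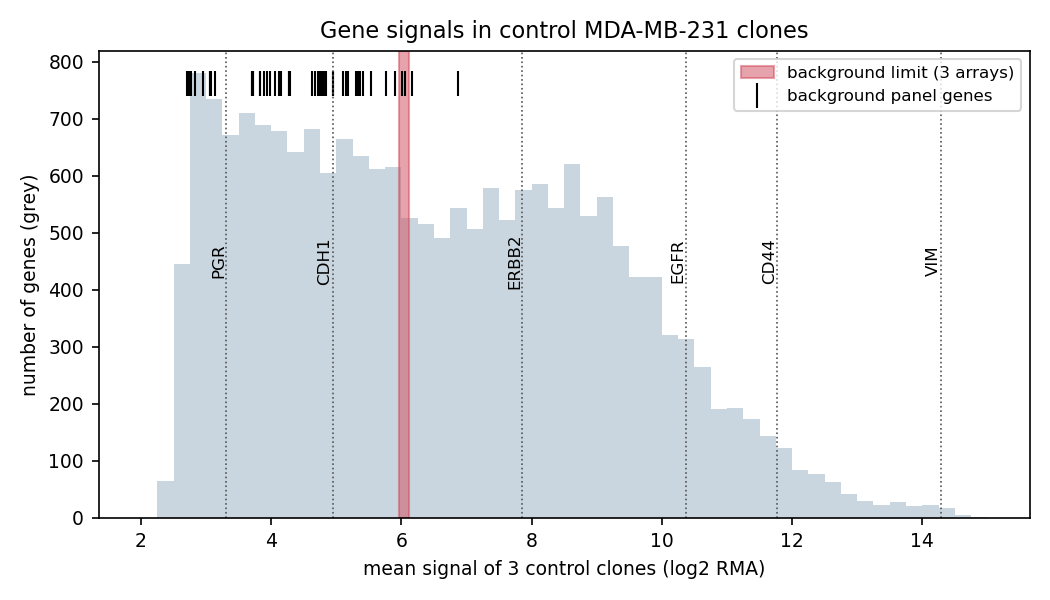
Number of genes (vertical axis) by mean log2 RMA signal over the 3 control clones (horizontal axis), with the span of the 3 arrays' background limits as a red band, the 50 background panel genes as ticks and 6 genes marked by dotted lines. VIM, CD44, EGFR and ERBB2 lie to the right of the band, and CDH1 and PGR to its left among the panel genes.

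The brightest signals belonged to the machinery of growth. GAPDH, the glyceraldehyde phosphate dehydrogenase of glycolysis, ranked 1 with 14.79 ± 0.01 (SD, n = 3). It was followed by the ribosomal protein gene RPL41 at 14.72, 14.75 and 14.73. The mitochondrially encoded cytochrome oxidase subunits COX2 and COX1 had means of 14.71 and 14.65. The elongation factor EEF1A1, which delivers aminoacyl-tRNA to the ribosome, stood at 14.69, 14.57 and 14.67. The 100 brightest genes carried 16.7% ± 0.13 (SD, n = 3) of the summed linear signal of all genes. Among them were 46 genes of cytosolic ribosomal proteins and 5 mitochondrially encoded genes. Rank 100 had a level of 13.37 and the next gene 13.35, so the edge of this group is not a step.

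Outside the ribosome, the 40 brightest genes included some of the cytoskeleton and of calcium-dependent membrane binding. S100A6, a calcium-binding S100 protein, read 14.45, 14.51 and 14.50. TMSB10 and TMSB4X, the beta-thymosins that hold actin monomers, had means of 14.43 and 14.28. ANXA2, an annexin that binds S100A10 at the membrane, averaged 14.27 ± 0.02 (SD, n = 3). These sit beside ACTB (14.40), the tubulin genes TUBA1B (14.37) and TUBA1C (14.16), VIM and LGALS1 (14.25), which encodes the galactoside-binding lectin galectin-1. The remaining genes of the 40 that encode no ribosomal protein were ND4, PPIA, ATP6, LDHA, FTL, UBB and B2M, with means from 14.16 (B2M) to 14.41 (ND4).

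Many ribosomal protein and elongation factor genes are known to start transcription at a cytosine followed by an unbroken run of pyrimidines, the 5′ terminal oligopyrimidine tract, through which mTOR controls their translation. Their start windows are shown because this feature was shared by many of the brightest genes and was not used to choose them. Each line below gives 15 bases before and 20 bases from the annotated start, 5′ to 3′ on the gene's strand, with the pyrimidine run from the first transcribed base in capitals.
RPL41: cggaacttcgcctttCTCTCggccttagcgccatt
EEF1A1: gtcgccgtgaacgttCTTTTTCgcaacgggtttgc
RPS18: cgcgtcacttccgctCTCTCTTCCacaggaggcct
RPS16: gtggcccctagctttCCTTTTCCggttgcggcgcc
RPS19: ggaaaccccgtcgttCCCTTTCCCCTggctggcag
RPS24: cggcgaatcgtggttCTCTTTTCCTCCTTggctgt
GAPDH: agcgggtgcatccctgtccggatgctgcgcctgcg
VIM: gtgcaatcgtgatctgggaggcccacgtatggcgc
S100A6: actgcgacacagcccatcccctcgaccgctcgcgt

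The windows come from the RefSeq promoter table of GRCh38.p14. They lie at chr12:56116618-56116652 on the plus strand for RPL41, chr6:73521013-73521047 on the minus strand for EEF1A1, chr6:33272060-33272094 on the plus strand for RPS18 and chr19:39435930-39435964 on the minus strand for RPS16. Those of RPS19 at chr19:41860240-41860274 and RPS24 at chr10:78033848-78033882 are on the plus strand. The contrasting windows without such a run are at chr12:6535249-6535283 (GAPDH, plus), chr10:17228226-17228260 (VIM, plus) and chr1:153535972-153536006 (S100A6, minus). Ribosomal protein genes among the 40 brightest that also lack the run include RPS15, RPL32, RPL9 and RPS29, whose windows are not shown. A run was counted when the first transcribed base was C and at least 4 further pyrimidines followed without a break. RPL41 carries a run of 5 bases, EEF1A1 of 7, RPS19 of 11 and RPS24 of 14.

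Among the 100 brightest genes, 85 matched a promoter in the table and 35 of them (41.2%) began with such a run, against 4.0% of all 27305 promoters in the table. The share was 10.2% in the ranks from there to 500, then 5.1% to rank 2000, 4.7% to rank 5000, 4.8% to rank 10000 and 3.4% beyond. Of ribosomal protein genes above background, 32 of 45 matched promoters (71.1%) had the run, and of translation factor genes 9 of 19 (47.4%). Respiratory chain genes had it in 4 of 22 and glycolysis genes in 0 of 18. Outside the ribosomal protein list, 7 of 45 of the brightest genes (15.6%) had it. These are matches at annotated starts, and no start site was measured here.

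Promoters of the genes above background differed in base composition from those within the range. The median ratio of observed to expected CpG was 0.85 over 8486 promoters of genes above background and 0.48 over 6546 promoters of genes within the range. Median GC content was 65.7% and 57.7%. The letters TATAAA between positions -40 and -16 before the start occurred in 1.5% of the former and 4.9% of the latter, against 2.5% of all promoters in the table. These shares describe the genes in the 2 classes, and the promoters are not independent of one another within gene families.

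Most genes of the growth machinery lists were on. Of the cytosolic ribosomal protein genes, 51 of 53 analysed (96.2%, beside 51.8% of all genes) were above background with a median level of 13.97. The exceptions were RPLP2 at 5.84 and RPL36A at 4.52, and RPL27A read 7.79, all far from their fellow subunits. Each of these genes is represented here by the probe sets that carry a single gene symbol, 2 for RPLP2 and 1 for the others. Of the translation factor genes, 26 of 27 were above background with a median of 12.27, and the exception was EIF4A2 at 2.83 on 1 probe set. Without probe sets that match several transcripts, 21 of 30 ribosomal protein genes and 16 of 19 translation factor genes were above background, beside 46.9% of all genes in that setting.

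All 18 glycolysis enzymes analysed were above background, beside 51.8% of all genes, with a median of 12.21. LDHA, which reduces pyruvate to lactate, read 14.31, 14.26 and 14.26, and ENO1, the enolase, read 13.54, 13.43 and 13.57. A dimmer probe set of ENO1 read 12.65, 11.55 and 12.46, with clone 2 low. SLC2A1, the glucose transporter, read 10.12, 10.20 and 10.23. The dimmest were the phosphofructokinase PFKL (8.16) and the aldolase ALDOC (7.51). Respiratory chain subunits were above background in 29 of 29 genes with a median of 12.41, led by COX7C at 13.68. Chaperones and folding enzymes were so in 22 of 22, among them the cyclophilin PPIA (14.32), HSP90AA1 (13.68), the mitochondrial chaperonin HSPD1 (13.18) and the endoplasmic reticulum chaperone HSPA5 (12.04). The 30 actin, tubulin and intermediate filament genes were also on without exception, with a median of 12.28. TUBB3, a beta-tubulin best known from neurons, read 12.23, 12.19 and 12.22. Probe sets that match several transcripts were left out in the same way. Then 8 of 10 glycolysis enzymes, 14 of 17 chaperones and 16 of 18 cytoskeletal genes were above background, beside 46.9% of all genes.

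Every one of the 30 proliferation genes analysed was above background in these growing cultures, beside 51.8% of all genes. UBE2C, the ubiquitin-conjugating enzyme of the anaphase-promoting complex, read 12.81, 12.91 and 12.86. PCNA, the sliding clamp of DNA replication, averaged 12.22 ± 0.02, and the mitotic cyclin CCNB1 11.55 ± 0.10 (SD, n = 3). MKI67, the proliferation antigen, read 9.62, 9.50 and 9.55. The D-type cyclins were on at unequal margins over the limit: CCND1 at 11.04, CCND3 at 10.38 and CCND2 at 6.73. CCND2 and the mitotic kinase PLK1 (6.47) were not above the brightest panel gene.

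The genes of chromosome band 9p21 gave the opposite picture. This region, which holds the cell cycle inhibitors CDKN2A and CDKN2B next to MTAP, is known to be deleted in MDA-MB-231. None of the 9 genes analysed was above background, beside 51.8% of all genes, and their median level was 3.51. All lay within the background range, as did 45.7% of all genes. CDKN2A, which encodes the inhibitors p16 and ARF, read 5.55, 5.55 and 5.45, with 0 of 3 probe sets above background. MTAP, the methylthioadenosine phosphorylase, averaged 4.80 ± 0.06 with 0 of 6 probe sets above background, and CDKN2B 4.00 ± 0.12. The members IFNB1, IFNA1, IFNE and ELAVL2 are known as tissue-restricted or induced genes that are off in many cells. Copy number was not measured. By contrast the inhibitors CDKN1A and CDKN1B, on other chromosomes, read 9.81 and 10.36.

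Lineage genes of several kinds were on. Of the mesenchymal and claudin-low markers, 18 of 27 analysed (66.7%, beside 51.8% of all genes) were above background, with a median of 10.36 and one of 6.32 over all genes. The count was 11 of 20 without probe sets that match several transcripts. After VIM and LGALS1, the collagen-receptor chain ITGB1 read 13.30, 13.29 and 13.29. AXL, the receptor kinase tied to invasive states, read 12.55, 12.55 and 12.60. The actin-membrane linker MSN averaged 12.76, the metastasis-associated S100A4 12.78, the caveolae protein CAV1 12.50, the ectonucleotidase NT5E 11.65 and the cell-surface matrix glycoprotein FN1 12.28. The clones differed little at these genes, with SDs of 0.07 or less.

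The transcription factors of epithelial-mesenchymal transition were not all on. ZEB1 read 9.85, 9.74 and 9.91, well over the limit in each clone, on 2 of its 4 probe sets. SNAI2 read 6.97, 6.69 and 7.12, over the limit but near the brightest panel gene. ZEB2 read 5.36, 4.87 and 5.33, SNAI1 4.84, 4.85 and 4.88, and TWIST1 2.92, 2.85 and 2.73, so these 3 lay within the background range in every clone. TWIST2 (3.55) and FOXC2 (3.86) were within it too. So were the mesenchymal cadherin CDH2, at 4.08, 4.17 and 4.01, and the matrix protein SPARC, at 4.87, 4.91 and 4.82.

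Of 29 epithelial junction and polarity genes analysed, 18 (62.1%, beside 51.8% of all genes) were above background, with a median of 7.05. With the mean of all probe sets of a gene the count was 13 of 29, beside 9177 of all 19775 genes, a similar share. CDH1, the epithelial cadherin, read 5.19, 4.59 and 5.05 and was within the background range on both of its probe sets. The regulators that maintain epithelial gene expression were also in that range: GRHL2 at 3.81, OVOL1 at 5.29, OVOL2 at 4.05 and the splicing factor ESRP1 at 4.11. The placental cadherin CDH3 read 4.37 and the epithelial GTPase RAB25 4.1. Desmosomal and tight junction genes were nevertheless present. DSG2, a desmosomal cadherin, read 11.29, 11.23 and 11.27. The desmosomal plaque genes DSP and JUP averaged 9.94 and 8.36, and OCLN, the tight junction protein occludin, 8.68.

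The claudins that give the claudin-low group its name were above the background limit in all 3 clones. CLDN4 read 8.46, 8.28 and 8.37, CLDN7 8.25, 8.17 and 8.25, and CLDN3 6.36, 6.41 and 6.28. CLDN3 did not pass the brightest panel gene. EPCAM, the epithelial adhesion molecule, read 7.53, 7.39 and 7.51. No other cell line was measured, so these levels cannot be called low or high for breast cancer.

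Of the luminal breast markers, 16 of 28 analysed (57.1%, near the 51.8% of all genes) were above background, with a median of 7.16, and 10 of 20 without probe sets that match several transcripts. The simple-epithelium keratins were among the bright genes: KRT18 read 12.99, 12.97 and 13.07, KRT7 12.36, 12.28 and 12.40, KRT19 11.61, 11.54 and 11.69, and KRT8 11.36, 11.25 and 11.42. Several genes of secretory cells were also bright, whereas AGR3 and SCGB2A2 of the same list were within the background range. These secretory genes were not set as a list of their own. TFF1, a trefoil peptide best known as an oestrogen-induced gene, read 12.06, 12.18 and 12.23 on its only probe set. AGR2, a disulfide isomerase of secretory cells, read 11.86, 11.97 and 11.95, with both probe sets above background. SPDEF, an ETS factor of secretory epithelia, read 9.44, 9.51 and 9.51, with 5 of 5 probe sets above background, and TFF3 averaged 9.48. TFF2, a gastric trefoil peptide listed among other secreted factors, read 11.25, 11.23 and 11.23. The identity of the line was not tested beyond marker genes.

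Among the transcription factors and receptors of the luminal programme, PGR and FOXA1 were within the background range in every clone. PGR, the progesterone receptor, read 3.21, 3.33 and 3.38, and FOXA1, the pioneer factor of luminal cells, 3.39, 3.18 and 3.37. ESR1, the oestrogen receptor alpha gene, read 5.70, 5.87 and 6.11 on its brightest probe set, which passed the limit in clone 3 alone and so was mixed. Its other 8 probe sets had means between 2.60 and 5.79. GATA3, a luminal transcription factor, was above background at 7.48, 7.34 and 7.28 on 1 of 3 probe sets, and lost the call when its probe sets were averaged. SCGB2A2, the mammaglobin gene, averaged 2.69, AGR3 2.64 and ELF5, a factor of alveolar progenitors, 3.25.

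Of the basal and myoepithelial markers, 7 of 19 analysed were above background (36.8%, median 5.49), beside 51.8% of all genes. CAV1 at 12.50, the cytolinker DST at 11.27 and the laminin chain LAMB3 at 11.02 were far above the limit. The defining basal keratins were not: KRT5 read 5.52, 5.57 and 5.40, and KRT14 3.48, 3.37 and 3.50. The myoepithelial contractile genes CNN1 (3.90) and MYH11 (5.37) were within the background range, and ACTA2 was mixed at 5.85, 5.54 and 5.99.

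**Figure D2:**
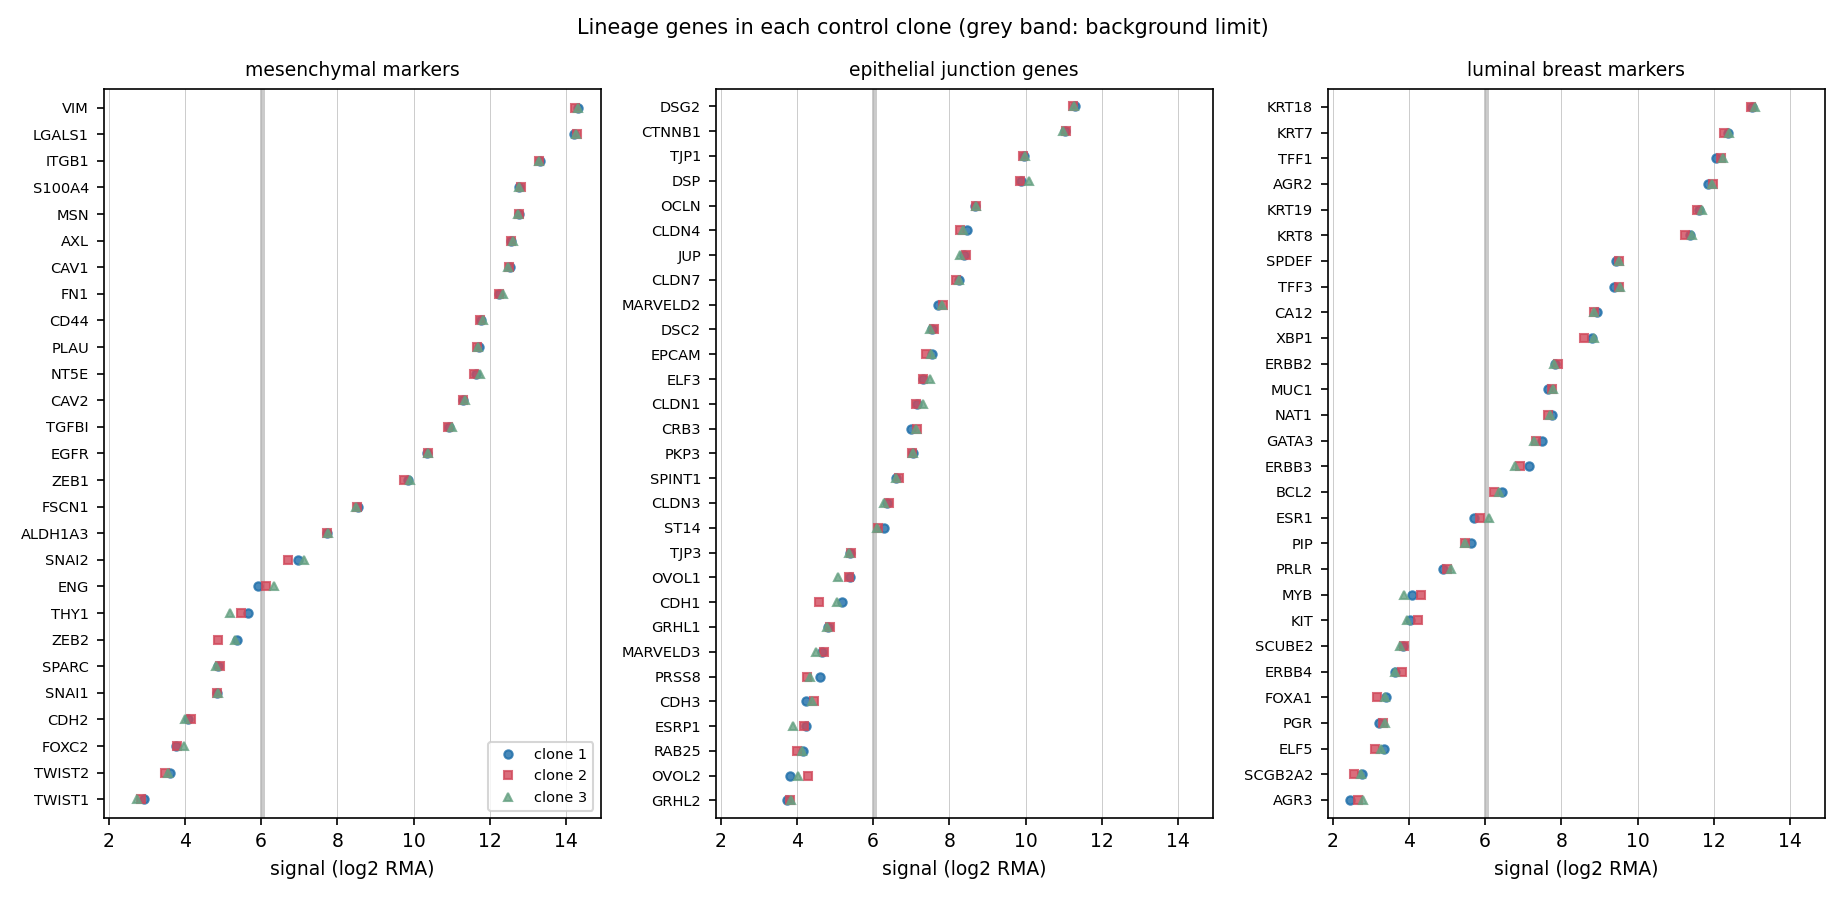
Log2 RMA signal (horizontal axis) of every analysed mesenchymal marker, epithelial junction gene and luminal marker in control clones 1 (circles), 2 (squares) and 3 (triangles), with the span of the background limits as a grey band. In each panel some genes lie far to the right of the band and others far to the left, and the 3 clones nearly coincide: VIM, DSG2 and KRT18 lead their panels, while TWIST1, GRHL2 and AGR3 are lowest.

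Markers of other cell types were examined in the same way, beside 51.8% of all genes above background. Of 20 leukocyte markers, 1 (5.0%) was above background, CSF1R at 6.38, 6.39 and 6.18, and 0 with the brightest panel gene as the limit, and their means ran from 3.23 to 6.32. The pan-leukocyte marker PTPRC read 3.37, 3.23 and 3.08. Of 17 fibroblast and adipocyte markers, 2 (11.8%) were above the limit, COL1A1 at 7.28 and the complement factor CFD at 6.77. Without probe sets that match several transcripts the count was 0 of 13, beside 46.9% of all genes in that setting. The fibroblast genes LUM, COL3A1, POSTN, FAP and PDGFRA lay between 2.89 and 3.72. Melanocytic markers passed in 3 of 12 genes (25%), RAB27A, MITF and ERBB3, while the pigment cell genes MLANA (4.39) and TYRP1 (3.09) did not. 

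Endothelial and pericyte markers passed in 6 of 16 genes (37.5%, beside 51.8% of all genes). ESAM, an adhesion molecule of endothelial junctions, read 9.05, 9.01 and 8.95. ROBO4, an endothelial guidance receptor, read 8.48, 8.51 and 8.62, with both probe sets above background. PECAM1 read 7.58, 7.69 and 7.58, with 3 of 5 probe sets above background. MCAM, EGFL7 and CSPG4 averaged 7.38, 7.12 and 6.30. The other endothelial genes lay within the background range: CDH5, the endothelial cadherin, at 3.02, 2.97 and 3.00, TIE1 at 3.34, EMCN at 3.36, TEK at 4.75 and VWF at 5.20.

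Receptor tyrosine kinases were above background in 20 of 39 genes analysed, a share of 51.3% beside 51.8% for all genes. AXL led, followed by MET, the hepatocyte growth factor receptor, at 11.61, 11.59 and 11.66. EPHA2, an ephrin receptor, read 10.83, 10.86 and 10.83. Next in signal came EGFR, FGFR1 (9.51, with 6 of 7 probe sets above background), RYK (9.16) and ROR1 (8.81). The insulin and insulin-like growth factor receptors INSR and IGF1R read 8.70 and 8.58. ERBB2 read 7.84, 7.92 and 7.81 on 1 of 3 probe sets, the other 2 having means of 4.12 and 4.17. ERBB3 read 7.16, 6.92 and 6.79, and ERBB4 was within the background range at 3.70. KIT (4.08), PDGFRA (3.55), PDGFRB (5.53), KDR (5.73), RET (5.88), ALK (4.19) and ROR2 (3.01) were within it as well. The count of receptor kinases above background was 13 with the brightest panel gene as the limit and 12 of 30 without probe sets that match several transcripts.

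For several receptors the ligand was also measured. The EGFR ligands HBEGF, TGFA and EREG read 11.05, 9.21 and 8.54, and the ERBB3 ligand NRG1 9.36, while EGF (5.53) and BTC (4.49) were within the background range. HGF, the ligand of MET, read 5.40, 5.59 and 5.40, within the background range on all 5 probe sets. VEGFA, the vascular growth factor, read 12.17, 12.13 and 12.12, while its receptor KDR was in the background range and FLT1 read 6.49, 6.33 and 6.76.

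Of the nuclear receptors, 18 of 28 analysed (64.3%, beside 51.8% of all genes) were above background with a median of 6.73. With the brightest panel gene as the limit the count was 12 of 28, beside 8571 of all 19775 genes, a similar share. NR3C1, the glucocorticoid receptor, read 10.40, 10.17 and 10.48, with 5 of 5 probe sets above background. NR2F6 (9.38), PPARD (9.14), RXRA (9.02) and PPARG (8.79) followed. VDR, the vitamin D receptor, was near the limit at 6.69. The oestrogen receptor beta gene ESR2 (5.58), the mineralocorticoid receptor NR3C2 (5.58) and PGR were within the background range.

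G protein-coupled receptors were above background in 19 of 38 genes, a share of 50% near the 51.8% of all genes. The orphan receptor GPRC5A read 10.85, 10.82 and 10.85, the adenosine receptor ADORA2B 10.59, 10.48 and 10.64, and the adhesion receptor ADGRE5 10.38, 10.33 and 10.36. Receptors for lysophosphatidic acid (LPAR1, 9.19), thrombin (F2R, 8.87), extracellular nucleotides (P2RY2, 8.10) and Wnt (FZD7, 9.26, FZD6, 9.24) were on. The chemokine receptors analysed did not pass. CXCR4, which is known for its part in breast cancer metastasis, read 5.57, 5.25 and 5.19, with 0 of 3 probe sets above background. CXCR2 averaged 2.67, CCR7 3.19 and ACKR3 4.00, and CXCR1 was mixed at 6.05. The kisspeptin receptor KISS1R (3.86) and its ligand KISS1 (4.18) were both within the background range.

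Cytokine and death receptors were above background in 33 of 44 genes (75%, beside 51.8% of all genes), with a median of 8.0. IL6ST, the signalling chain shared by interleukin-6 family receptors, read 11.87, 11.83 and 11.92, and OSMR, the oncostatin M receptor, 10.72, 10.69 and 10.79. LIFR averaged 9.05, whereas the interleukin-6 binding chain IL6R was within the background range at 5.69. TNFRSF10B and TNFRSF10A, the TRAIL death receptors, averaged 11.37 and 9.09, and their ligand TNFSF10 8.42. The tumour necrosis factor receptor TNFRSF1A was above background at 10.34 and TNFRSF1B within the range at 5.33. TGFBR2 read 11.23, 11.26 and 11.47 and TGFBR1 10.17, 10.22 and 10.27. FAS, the receptor for Fas ligand, stood just over the limit at 6.17.

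Integrins link cells to matrix as pairs of alpha and beta chains, and 12 of 24 chains analysed were above background, a share of 50% near the 51.8% of all genes. ITGA2, the collagen-binding partner of ITGB1, read 11.97, 11.88 and 11.95. The laminin-binding chains ITGA6 and ITGA3 averaged 11.13 and 9.35, and ITGB4, which pairs with ITGA6, 9.12. ITGAV (10.54) and ITGB5 (11.77), the chains of a vitronectin receptor, were on, as was the fibronectin receptor chain ITGA5 (9.49). ITGAE, whose product is best known from intraepithelial lymphocytes, read 11.62, 11.73 and 11.70 on its only probe set. ITGB3 was within the background range at 6.03, 6.01 and 5.87, as were ITGB8 (3.58), ITGA4 (2.95), ITGA9 (4.39) and the leukocyte chains ITGAL, ITGAM and ITGAX.

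Among collagen chains 13 of 27 were above background, a share of 48.1% near the 51.8% of all genes. COL13A1, a transmembrane collagen, read 12.53, 12.60 and 12.50, with 3 of 3 probe sets above background. COL4A2 and COL4A1, the chains of the basement membrane network, averaged 11.26 and 9.56. COL5A1 (9.91), COL6A1 (9.70), COL18A1 (9.14) and COL6A3 (8.73) were on. Of the chains that form the main fibrils of connective tissue, COL1A1 read 7.36, 7.28 and 7.21, while its partner COL1A2 read 4.49, 4.64 and 4.66 and COL3A1 3.72, 3.61 and 3.83. COL1A1 had 2 of 5 probe sets above background and lost the call when probe sets were averaged. COL6A2 was mixed, at 6.15, 5.62 and 5.93.

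Laminins and matrix glycoproteins passed in 21 of 37 genes (56.8%, near the 51.8% of all genes) with a median of 7.98. Without probe sets that match several transcripts 10 of 27 passed (37.0%, below the 46.9% of all genes in that setting). FN1, which encodes fibronectin, read 12.24, 12.24 and 12.34. The matricellular genes CCN1 and CCN2 averaged 12.27 and 11.42, the collagen cross-linking enzymes LOXL2 and LOX 12.03 and 10.60, and THBS1 10.32. Laminin chains LAMC1 (11.74), LAMA5 (11.59), LAMB3 (11.02), LAMB1 (9.64) and LAMB2 (9.47) were above background, and LAMA1 (4.28), LAMA2 (4.70) and LAMA4 (5.59) within the range. Stromal matrix genes such as VCAN (4.03), POSTN (2.89), SPP1 (3.32), DCN (5.21) and THBS2 (3.62) were also within it.

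Proteases and their inhibitors passed in 24 of 37 genes (64.9%, beside 51.8% of all genes), with a median of 9.0. The plasminogen system was on: PLAT, the tissue-type activator, read 12.24, 12.24 and 12.27, PLAU, the urokinase, 11.71, 11.66 and 11.69, and its receptor PLAUR 11.86, 11.85 and 11.81. The lysosomal protease CTSB averaged 11.93 with 5 of 5 probe sets above background. The metalloproteinase inhibitors TIMP1, TIMP3 and TIMP2 averaged 13.15, 11.91 and 11.67, while TIMP4 was within the background range at 4.77. Of the metalloproteinases themselves few passed. MMP14, the membrane-anchored collagenase, read 8.17, 8.20 and 8.16, with 4 of 4 probe sets above background, and MMP1, the interstitial collagenase, 7.99, 7.93 and 7.90. MMP15 stood just over the limit at 6.37. The gelatinases MMP9 (5.33, 5.42 and 5.40) and MMP2 (5.16, 5.15 and 5.08) were within the background range, and so were MMP3, MMP7, MMP8, MMP10, MMP12 and MMP13, with means between 3.04 and 4.04. The sheddases ADAM9, ADAM10 and ADAM17 averaged 11.13, 10.66 and 9.25.

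**Figure D3:**
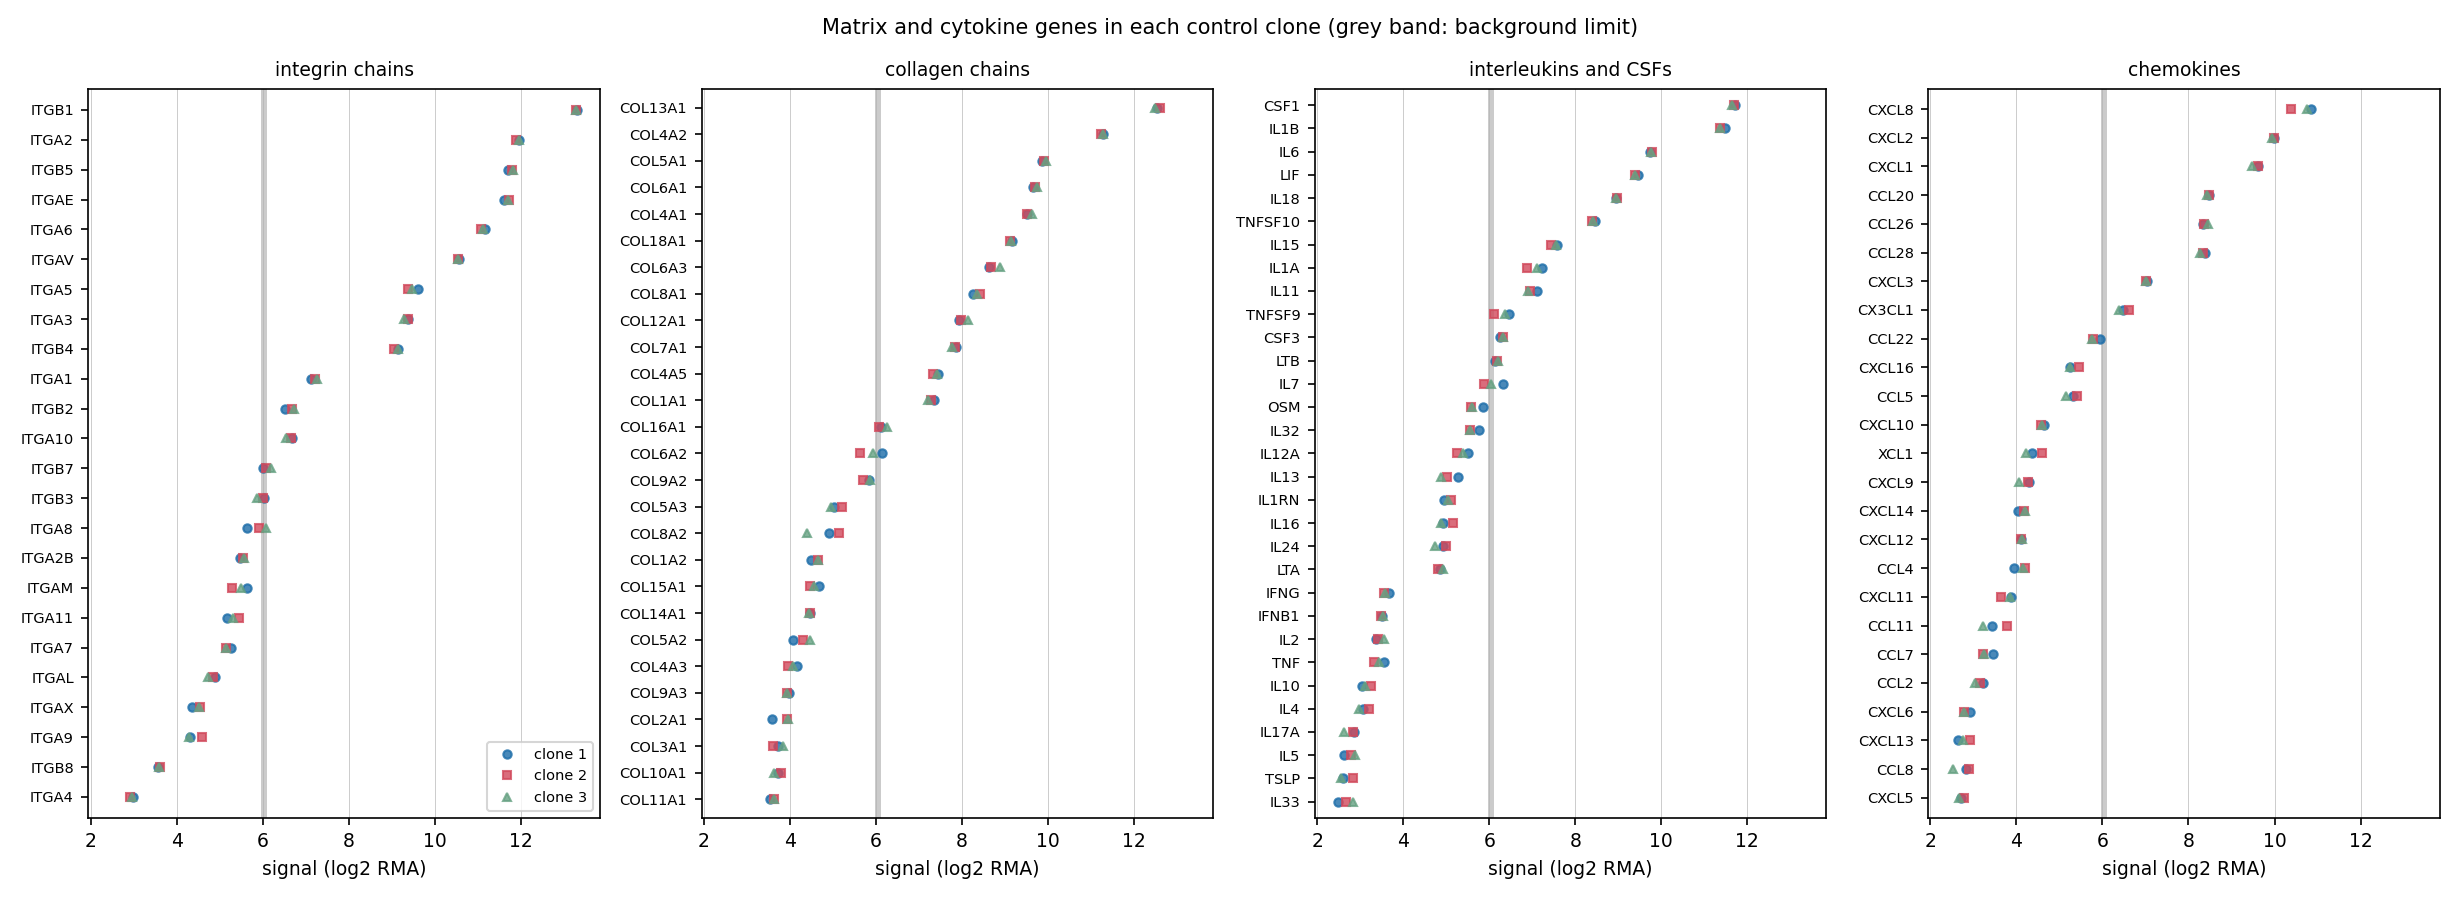
Log2 RMA signal (horizontal axis) of every analysed integrin chain, collagen chain, interleukin or colony-stimulating factor and chemokine in control clones 1 (circles), 2 (squares) and 3 (triangles), with the background limits as a grey band. ITGB1, COL13A1, CSF1 and CXCL8 lead their panels, and the clones of CXCL8 run from 10.39 in clone 2 to 10.85 in clone 1. Other genes have wider clone ranges, up to 0.741 among the collagen chains and 0.542 among the chemokines.

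Interleukins and colony-stimulating factors were above background in 12 of 31 genes (38.7%, beside 51.8% of all genes). CSF1, the macrophage colony-stimulating factor, read 11.71, 11.70 and 11.63. IL1B read 11.47, 11.38 and 11.37, with both probe sets above background, and IL1A 7.23, 6.89 and 7.11. IL6 read 9.74, 9.78 and 9.77, and the related cytokines LIF and IL11 averaged 9.42 and 6.98. IL18 (8.96) and IL15 (7.53) were on. The lymphocyte cytokines IL2, IL4, IL5, IL10, IL17A and IFNG lay between 2.76 and 3.60, and TNF read 3.56, 3.32 and 3.43. The alarmins TSLP and IL33 averaged 2.66 each.

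Chemokines passed in 8 of 25 genes (32%, beside 51.8% of all genes), with a median of 4.40. CXCL8, the neutrophil attractant interleukin-8, read 10.85, 10.39 and 10.76 on its brighter probe set and 9.20, 7.81 and 8.96 on the other. Both were above background in every clone and lowest in clone 2, by 0.46 and 1.39 from the highest clone. CXCL2 read 10.00, 9.99 and 9.94, CXCL1 9.61, 9.62 and 9.47, and CXCL3 7.04, 7.01 and 7.01. CCL20, CCL26 and CCL28 averaged 8.46, 8.39 and 8.33, and CX3CL1 6.50. The CXCR2 ligands CXCL6 and CXCL5 were within the background range, with CXCL6 at 2.92, 2.78 and 2.77 and CXCL5 at 2.72, 2.79 and 2.66. The monocyte attractant CCL2 read 3.22, 3.14 and 3.04, and the interferon-induced CXCL9, CXCL10 and CXCL11 averaged 4.20, 4.61 and 3.79.

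The neutrophil-attracting CXCL genes lie in a cluster on chromosome 4 and are known targets of NF-kB. Their promoters are shown because genes of this cluster were on and off in the same cells while carrying the same motif. The 9-base match GGAATTTCC was searched on both strands of the 250 bases before each start. Each line gives the 100 bases before the start, 5′ to 3′ on the gene's strand, with that motif and, where present at -40 to -16, the letters TATAAA in capitals.
CXCL8: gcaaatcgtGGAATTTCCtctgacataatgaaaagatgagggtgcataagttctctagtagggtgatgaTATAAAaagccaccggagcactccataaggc
CXCL2: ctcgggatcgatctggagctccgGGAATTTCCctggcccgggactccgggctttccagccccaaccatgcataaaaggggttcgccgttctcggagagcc
CXCL1: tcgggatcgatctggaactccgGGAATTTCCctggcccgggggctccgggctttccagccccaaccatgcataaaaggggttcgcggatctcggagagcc
CXCL3: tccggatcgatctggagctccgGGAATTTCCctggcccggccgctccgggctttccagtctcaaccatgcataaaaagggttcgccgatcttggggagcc
CXCL6: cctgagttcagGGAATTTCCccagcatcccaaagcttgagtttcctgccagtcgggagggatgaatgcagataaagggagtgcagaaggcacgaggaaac
CXCL5: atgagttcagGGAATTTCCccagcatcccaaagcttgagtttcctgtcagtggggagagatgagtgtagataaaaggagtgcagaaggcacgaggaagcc

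These windows are from the same RefSeq table of GRCh38.p14, at chr4:73740469-73740568 (CXCL8, plus strand), chr4:74099196-74099295 (CXCL2, minus), chr4:73869293-73869392 (CXCL1, plus), chr4:74038690-74038789 (CXCL3, minus), chr4:73836578-73836677 (CXCL6, plus) and chr4:73998678-73998777 (CXCL5, minus). The first base of the match lay at -91 in CXCL8, -77 in CXCL2, -78 in CXCL1 and CXCL3, -89 in CXCL6 and -90 in CXCL5. Over all promoters in the table, 117 of 27305 (0.43%) held this motif. Of the chemokine promoters matched, 4 of 7 among genes above background and 4 of 11 among genes within the range held it, the latter including CXCL10 and CXCL11. The motif was therefore present in chemokine promoters of both classes. The windows of CXCL1, CXCL2 and CXCL3 share most of their bases, as do those of CXCL5 and CXCL6, so these counts are not of independent promoters. A match describes these letters, and binding was not measured.

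Growth factors and members of the TGF-beta family passed in 27 of 41 genes (65.9%, beside 51.8% of all genes), with a median of 7.52. Without probe sets that match several transcripts 17 of 33 passed (51.5%, near the 46.9% of all genes in that setting). Beside VEGFA, the Wnt antagonist DKK1 read 11.73, 11.57 and 11.67 and the platelet-derived growth factor PDGFC 11.24, 11.41 and 11.39. VEGFC (10.25), ANGPTL4 (9.67), BMP4 (9.21), the activin antagonist FST (9.19) and BDNF (8.24) were on. TGFB1 and TGFB2 averaged 7.39 and 7.90 and TGFB3 5.75, the last within the background range. FGF2 (3.71), FGF7 (3.18), WNT5A (5.08) and the BMP antagonist GREM1 (2.83) were within it too, while WNT5B (8.11) and WNT7B (8.09) were above it. Among other secreted factors, the stanniocalcin STC1 averaged 10.10 and the lipocalin LCN2 8.91, and STC2 was within the range at 4.55.

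Interferon-stimulated and antigen-presentation genes were above background in 28 of 32 cases (87.5%, beside 51.8% of all genes), with a median of 9.54. Without probe sets that match several transcripts 17 of 23 were (73.9%, beside 46.9% of all genes in that setting). B2M, the light chain of MHC class I, read 14.15, 14.18 and 14.14, and the heavy chains HLA-B and HLA-C averaged 13.14 and 12.71. These HLA genes share near-identical sequence, so their signals may not be fully separate. ISG15, a ubiquitin-like interferon product, averaged 12.04 ± 0.04 (SD, n = 3), and IFIT3 11.45, 11.41 and 11.36. IFIT1 read 10.01, 9.49 and 9.83, a wider spread than that of IFIT2 (10.18, 10.09 and 10.12). The class II transactivator CIITA (5.44) and HLA-DPA1 (5.38) were within the background range, as were OAS1 (5.18) and IFI44L (4.88), while MX1 averaged 6.81.

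The S100 and annexin families, whose members bind calcium and membranes, passed in 18 of 24 genes (75%, beside 51.8% of all genes) with a median of 11.09. S100A10 (14.04), ANXA1 (13.26), S100A4, ANXA5 (12.61), S100A16 (12.52) and S100A11 (12.43) followed S100A6 and ANXA2. S100P read 11.97, 12.08 and 12.11. The inflammatory and squamous members S100A8 (3.89), S100A9 (3.87) and S100A7 (3.61) were within the background range, as was S100A14 at 5.12. Of 18 cancer-testis genes 3 (16.7%) passed: SPANXB1, a sperm protein gene, at 12.33, 12.45 and 12.48, and the more widely expressed MAGED2 and MAGED1 at 10.64 and 10.63. The MAGEA, MAGEB, MAGEC, GAGE, PAGE and SSX members were within the range, with means of 4.67 or less.

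**Figure D4:**
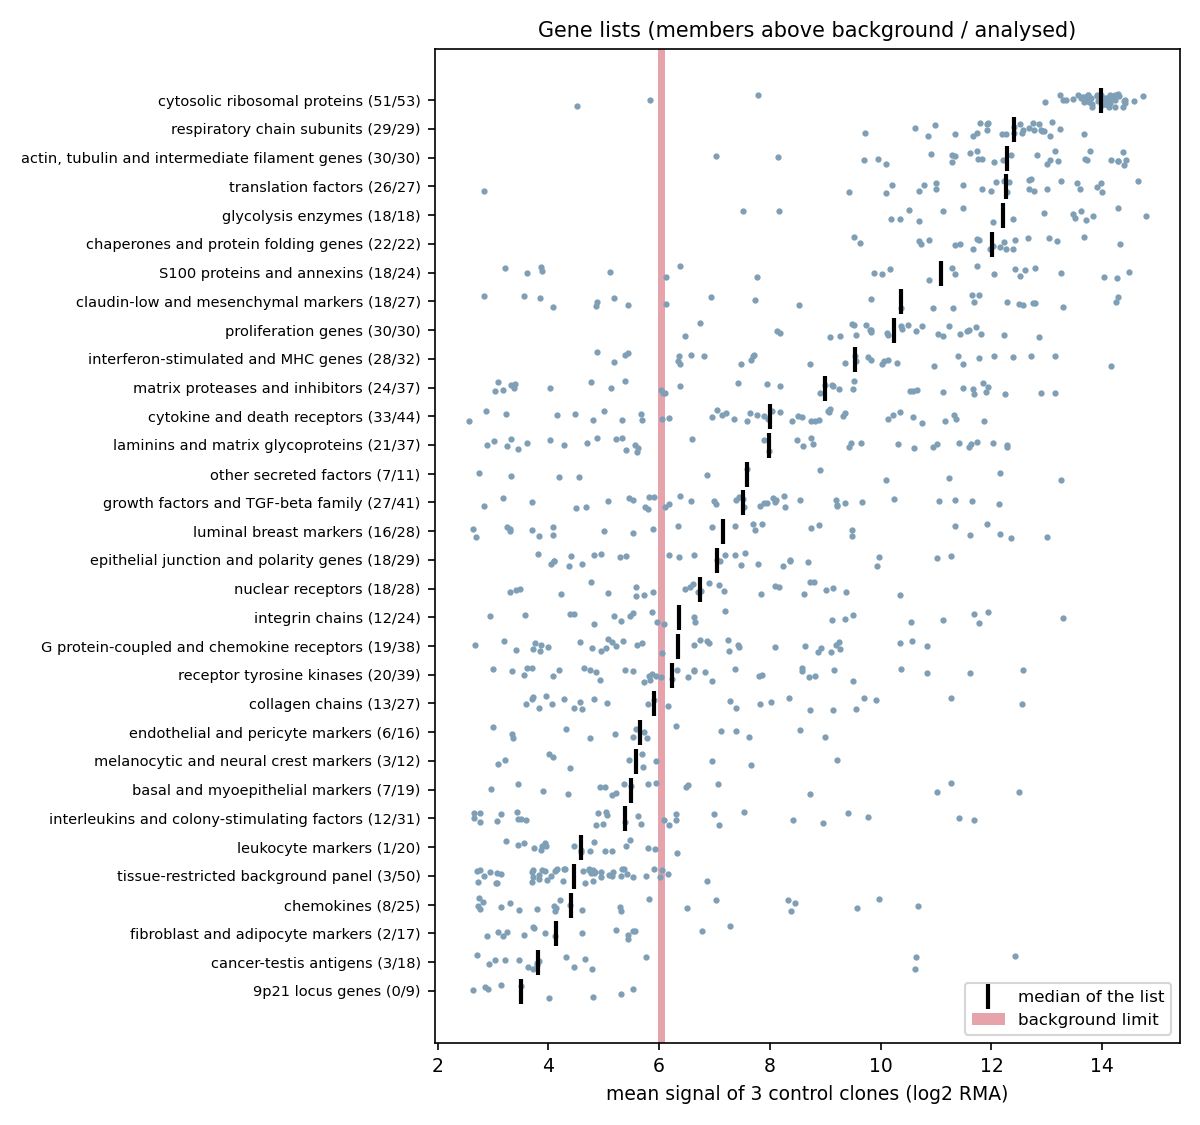
Mean log2 RMA signal over the 3 control clones (horizontal axis) of each analysed gene (points, jittered vertically) in the background panel and the 31 other lists, ordered by their median (black tick), with the background limits as a red band. Numbers in brackets give members above background of members analysed. The ribosomal protein list has the highest median (13.97) and the 9p21 list the lowest (3.51), and lineage, receptor and cytokine lists spread across the band.

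The 3 clones were close to one another over the whole array. Pearson correlations across the 19775 genes were 0.9984 for clones 1 and 2, 0.9984 for 1 and 3 and 0.9983 for 2 and 3, which describes the libraries since genes are not independent replicates. The median absolute difference between a pair of clones was 0.0824, 0.0835 and 0.0896 in the same order. The median SD between clones was 0.0751 over all genes and 0.0571 over genes above background. It was 0.1015 in genes below 4 and 0.03 in genes between 12 and 15, so dim genes varied more than bright ones.

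On the brightest probe set of each gene, 0 genes (0.0%) differed 2-fold or more between the highest and the lowest clone among the 10730 above the limit in any clone. The largest such difference was 0.73 on the log2 scale. Over all 18350 named probe sets above the limit in any clone, 2 (0.0109%) reached 2-fold, a dimmer probe set of CXCL8 (9.20, 7.81 and 8.96, a 2.62-fold range) and the dimmer probe set of ENO1 given above, and clone 2 was low in both. At a smaller difference of 0.5 or more, a threshold chosen after the first count was seen to be 0, there were 27 genes (0.252%). Clone 2 was the lowest clone in 14 of them, clone 1 in 7 and clone 3 in 6. Over all probe sets above the limit in any clone, counted after the data had been seen, 138 differed by 0.5 or more, and clone 2 was the lowest in 104, clone 3 in 18 and clone 1 in 16. The 3′ minus 5′ signal of the ACTB control probe sets, a measure of RNA integrity and labelling length, was 2.27, 2.91 and 2.47 in clones 1, 2 and 3, highest in clone 2, and that of GAPDH -0.01, 0.02 and 0.06. Its part in these differences was not tested.

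Most of the 20 largest differences sat near the background limit. KRTAP1-3, a hair keratin-associated protein gene, read 6.25, 6.24 and 5.52. Farther above it, PEX2, which encodes a peroxisomal membrane ligase, read 9.17, 8.56 and 9.18, SLC25A33, a mitochondrial nucleotide carrier, 8.24, 7.72 and 8.21, and IDH3A, a subunit of isocitrate dehydrogenase, 7.55, 7.16 and 7.68. In these 3 genes clone 2 was low and the others alike. C1R, the complement protease, was lowest in clone 1, at 7.04, 7.60 and 7.48, and so was the gluconeogenic enzyme FBP1, at 6.20, 6.64 and 6.72. The lipase LIPG read 6.63, 6.18 and 6.75.

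Other probe sets of the same gene, which were not used to pick it, followed these differences in part. The second probe set above background of PEX2 read 6.81, 6.87 and 6.90, without the dip in clone 2, and that of IDH3A 6.70, 6.73 and 6.83. That of BCOR, a transcriptional corepressor, read 6.37, 6.14 and 6.56, lowest in clone 2 like its first probe set (6.89, 6.41 and 6.97). Of 4433 genes with a second probe set above background, 1900 (42.9%) had the same clone highest on both, and of the 200 of them with the largest difference 100 (50%) did. The same clone was lowest in 42.4% and 53.0%. If each of the 3 clones were highest or lowest equally often, unrelated probe sets would share that clone in about 1 of 3 genes. This did not hold among the 138 probe sets with the larger differences counted above, where clone 2 was the lowest in 104. Unequal shares raise the agreement of unrelated probe sets, so 1 of 3 is no yardstick for the 200 genes. Whether their probe sets agree beyond such shares was not tested.

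**Figure D5:**
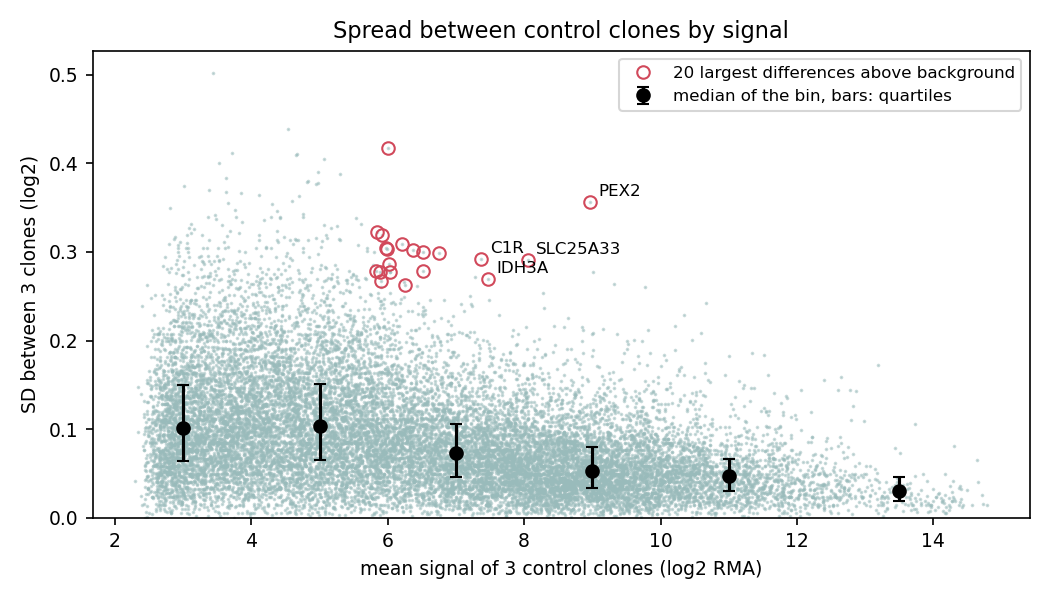
SD between the 3 control clones on the log2 scale (vertical axis) against mean log2 RMA signal (horizontal axis) for each gene, with the median and quartiles of 6 signal bins in black and the 20 largest clone differences among genes above the limit in any clone circled. The medians decline from 0.1015 and 0.1031 in the 2 dimmest bins to 0.03 in the brightest, and most circled genes lie near a signal of 6, with PEX2, SLC25A33, IDH3A and C1R farther right.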

How the data were processed

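RNA of 3 control clones was measured on 1 array each. The deposited values are log2 signals. Per the submitters' processing notes, the authors used RMA and Affymetrix Expression Console 1.0. RMA gives all arrays 1 distribution after background correction and summarises the probes of each set, which hides any shift common to most transcripts. No detection calls were used, and scanner files were not analysed here. The same table holds the 3 knockdown columns, which were not used here.

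Of 54675 probe sets, 41091 carried 1 gene symbol in the platform annotation, of which 41037 were matched by gene identifier to RefSeq GRCh38.p14 and 54 kept the old symbol. Another 1801 carried several symbols, 11721 none, and 62 were controls; none of these named a gene. Genes were called on or off in Python 3.11.15 with numpy 2.4.6 and pandas 2.3.3 against the 95th percentile of the background panel, 56 genes of which 50 were analysed. The 31 other lists held 884 genes, 791 of them analysed. The members and lists were chosen with earlier results of these data known. Named genes were the 40 of highest signal, list members, the 20 with the largest clone differences and WASF3. Promoters were matched by symbol for 15384 genes. The counting was checked on simulated data. Alternatives changed the limit, the probe set rule, the normalization and the clones used.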

Additional observations from a re-analysis of the deposited data

Results flagged for a closer look

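Probe sets that the report does not use also carried signal. Among the 13522 probe sets without a single gene symbol, 2696 (19.9%) were above the background limit on all 3 control arrays. These were 877 of the 1801 probe sets with several symbols (48.7%) and 1819 of the 11721 with none (15.5%). The brightest reached mean levels of 14.66 and 14.48. The background panel itself passed in 3 of 50 genes, GRIN1, PDE6B and SLC17A7. The limit is an upper percentile of this same panel on each array, so a few of its genes lie above it by construction. This count is therefore no finding about these genes.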

How the results depend on the processing

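No paired analysis was possible because the control clones were described alone and no result comes from a test. The number of genes above background was 10250 as reported. It was 10832 with the 90th percentile of the panel as the limit, 8571 with its brightest gene, 10424 with the leukocyte markers, 9177 with the mean of all probe sets of a gene, and 7869 without probe sets that match several transcripts, where fewer genes were analysed. Quantile normalization of the 3 arrays gave 10251, median centring 10250, and leaving out 1 clone 10274 to 10428. Median centring moves an array's values and its limit together, so it could not change a call. RMA had already given the arrays 1 distribution, so quantile normalization could change little. With 1 clone left out a gene needs to pass on fewer arrays, which tends to raise the count. The median SD between clones, 0.0751, moved to 0.0665 with the mean of all probe sets and to 0.0807 without probe sets matching several transcripts. It was 0.0571 over genes above background alone, and lay between 0.0583 and 0.0633 when 1 clone was left out. The median SD over 2 clones tends to be lower than over 3 at the same spread, so a drop is built into that setting. The count of genes with a 2-fold difference was 0 in each of these settings, and 2, CXCL8 and ENO1, when every probe set of a gene was read, a setting chosen after seeing the data. That of genes differing by 0.5 or more was 27 as reported, 136 over every probe set, 8 with the brightest panel gene as the limit, and 15, 9 and 9 without clone 1, 2 and 3. The last 3 counts rest on a range over 2 clones, which tends to be smaller than over 3. Of 320 list counts, 301 stayed within 1.5 times the reported count, and 12 of the 14 lists concerned by the other 19 moved when probe sets matching several transcripts were left out. The 320 include the counts under median centring and quantile normalization. The call was followed in 867 genes: list and panel members, the 40 brightest, the 20 with the largest clone differences and WASF3. Of these, 55 lost the call above background with the brightest panel gene as the limit and 44 with the mean of probe sets. Without probe sets that match several transcripts, 684 of them were analysed, of which 54 lost the call and 8 gained it. Median centring could change none, and quantile normalization changed none.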

Other observations

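The genes in this part were picked after their values had been seen. Metallothioneins, which bind zinc and copper, formed a bright group: MT2A averaged 13.88, MT1X 13.35, MT1F 12.40, MT1E 12.38, MT1H 12.37 and MT1G 12.01. MT1M (4.78) and MT3 (5.81) were within the background range. The MT1 genes are near-identical in sequence, and the share of cross-hybridisation in these values was not tested. Several antioxidant genes were bright as well. The ferritin light chain FTL averaged 14.18, the peroxiredoxin PRDX1 13.44 and thioredoxin TXN 13.32. The glutathione transferase MGST1 averaged 12.97, the quinone reductase NQO1 11.73 and GCLM 9.79. HMOX1, the haem oxygenase, read 6.38, 6.18 and 6.21, just over the limit.

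Among long noncoding RNAs, MALAT1 averaged 13.19 ± 0.17 (SD, n = 3), ZFAS1 averaged 12.81 and NORAD 12.56, while HOTAIR read 2.39, 2.51 and 2.37. Of 28 HOX genes analysed, 5 were above background, beside 51.8% of all genes. They were HOXD1 (8.18), HOXD4 (6.79), HOXC11 (6.74), HOXC6 (6.64) and HOXC5 (6.27). Another 21 were within the range, beside 45.7% of all genes, and the median over the 28 was 4.56. HOXA2 was the only HOXA gene among them, so the family was not fully covered. The inhibitors of differentiation ID1 and ID3 averaged 12.86 and 10.04, and ID4 was within the range at 5.62. The chromatin proteins HMGA1 and HMGA2 read 12.69 and 9.80, and the Notch ligand JAG1 12.63.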
